A study of Mus musculus with 8 samples.

Results

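A set of 10 genes that mark the epicardium and other mesothelium was examined in cultured mouse cardiac fibroblasts: Upk3b, Upk1b, Msln, Wt1, Krt8, Krt18, Krt19, Lrrn4, Muc16 and Bnc1. They were taken by symbol, and all 10 of 10 were present among the 54532 genes of the table. Poly(A) RNA had been sequenced from 8 libraries of C57BL/6 cells at passage 2. In 4 of them the cells had received a plasmid carrying murine THBS4, which encodes thrombospondin-4 (TSP-4), and in 4 an empty plasmid. The labels name the former pAAV.CMV.SV40.THBS4-HA.SV40(polyA) and the latter pAAV-CA, so the plasmids differ in more than the insert, and the titles of the control libraries call their cells non-stimulated. Both groups had 12 h in standard medium after transfection and 24 h without serum. Each group holds libraries lettered A to D. The labels do not say what a letter stands for. Nothing in them ties a library to an animal or a culture of its own, so the p-values reflect variation among these 8 libraries, which may be technical.

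The epicardium is the mesothelial sheet that covers the heart. It is an epithelium, and in the embryo some of its cells lose their junctions, enter the heart wall and give rise to fibroblasts and to the mural cells of coronary vessels. Mesothelial cells carry uroplakins, mesothelin and mucin-16 at their free surface, and simple-epithelial keratins (type II Krt8, which pairs with the type I keratins Krt18 and Krt19) in their cytoskeleton. WT1 is a zinc-finger transcription factor of the embryonic and the injured epicardium, and basonuclin 1 (Bnc1) is a zinc-finger protein of epithelia and germ cells.

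RefSeq start sites were found for 6 of the 10 genes on GRCm38.p6 (Upk3b, Krt8, Krt18, Lrrn4, Muc16 and Bnc1). The 250 bases before the start are shown, in the direction of the gene, for the 3 of them whose levels moved between library letters in the results that follow. Capitals mark every match, on either strand, to CATTCC (the TEAD factor motif), GGGCGG (the GC box), TATAAA (the TATA box) or GTGGGNG (a core shared by WT1 and EGR factors).
Upk3b, chr5:136038246-136038495, plus strand: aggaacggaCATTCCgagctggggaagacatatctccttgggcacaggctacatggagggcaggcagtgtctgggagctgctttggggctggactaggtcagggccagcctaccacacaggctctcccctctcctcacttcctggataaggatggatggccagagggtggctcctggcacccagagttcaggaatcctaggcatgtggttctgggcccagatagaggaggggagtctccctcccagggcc
Lrrn4, chr2:132880863-132881112, minus strand: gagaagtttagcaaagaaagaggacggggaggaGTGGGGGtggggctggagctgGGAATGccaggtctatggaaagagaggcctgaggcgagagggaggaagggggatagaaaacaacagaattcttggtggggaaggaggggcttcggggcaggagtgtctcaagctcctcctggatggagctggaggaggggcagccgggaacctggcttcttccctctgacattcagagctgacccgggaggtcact
Bnc1, chr7:81992300-81992549, minus strand: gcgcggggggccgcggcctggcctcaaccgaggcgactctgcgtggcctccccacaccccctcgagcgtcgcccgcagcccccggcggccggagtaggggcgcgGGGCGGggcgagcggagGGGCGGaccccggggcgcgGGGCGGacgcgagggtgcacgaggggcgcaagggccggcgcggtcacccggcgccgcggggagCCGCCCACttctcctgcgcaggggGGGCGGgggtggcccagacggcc

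Upstream of Upk3b the one match was CATTCC, from -241 to -236. The Lrrn4 sequence holds CATTCC on the opposite strand from -196 to -191, and GTGGGNG from -217 to -211. The Bnc1 sequence holds 5 GC boxes, and its GTGGGNG match on the opposite strand overlaps the GC box at -47. Its GC content was 83.6%, above that of 99.7% of 32851 mouse sequences of the same length, against 60.8% for Upk3b and 59.2% for Lrrn4. No match to these 4 motifs was found before the RefSeq starts of Krt8, Krt18 and Muc16. For Krt8, Krt18 and Lrrn4 the RefSeq start lies inside the gene as the deposited positions place it, so part of the sequence read is within that gene. Of all 32851 sequences, 12.6% hold CATTCC, 32.7% GGGCGG, 12.4% TATAAA and 28.1% GTGGGNG. A match is one of letters only.

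By level per length the 10 genes fell into 4 tiers. FPKM, the deposited unit, scales a count by gene length and library total. It allows genes to be set beside each other only as far as the length used holds for the transcripts present. At the top were 3 genes of membrane proteins: Lrrn4, a leucine-rich repeat protein of the cell surface, had 92.4 ± 23.9 FPKM (SD, n = 8), the tetraspanin uroplakin Upk1b 66.7 ± 23.9 and uroplakin Upk3b 63.2 ± 19.1. These means were above those of 96.5%, 95% and 94.6% of the genes tested. Lrrn4 exceeded Upk1b in 8 of 8 libraries although their ranges overlapped, and Upk1b exceeded Upk3b in 6 of 8, so the order of the uroplakins was not separated by their spread.

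Bnc1 at 11.1 ± 3.91 FPKM and Msln, which encodes the surface glycoprotein mesothelin, at 10.7 ± 4.53 made up the second tier. Bnc1 exceeded Msln in 3 of 8 libraries. Every library had more Upk3b than Bnc1, by 5.7 times between the means, and more Msln than Krt19, by 7.54 times. The third tier held Krt19 (1.41 ± 0.492 FPKM), Wt1 (0.767 ± 0.0837) and Krt18 (0.650 ± 0.235). Krt19 was above Wt1 in 8 of 8 libraries, whereas the ranges of Wt1 and Krt18 overlapped. The order of Krt19 and Wt1 depends on the deposited lengths, 1855 and 6195 bases. In counts over all libraries Wt1 had more, at 722 against 402. Wt1 thus stood above 17.0% of tested genes and Krt18 above 14.8%.

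Krt8 and Muc16 were close to zero. Krt8 had 0, 0, 1 and 2 counts in TSP-4 plasmid libraries A to D and 1, 1, 0 and 0 in empty plasmid libraries, 5 in all. Muc16, a mucin that binds mesothelin, had 0 counts in all 4 TSP-4 plasmid libraries and 2, 2, 0 and 2 in the empty plasmid libraries, 6 in all. A count of 0 allows up to 3 counts, which over the TSP-4 plasmid group is 0.0403 CPM (a count scaled to library size with TMM factors), for counting error only. The counts of Krt8 are uncertain, since 29.7% of its 50-base stretches also occur in other annotated genes, mostly in the pseudogene Krt8-ps, which has 0 counts. The set was therefore uneven: uroplakin and Lrrn4 transcripts were abundant and those of Krt18 and Krt19 were scarce. Krt8, the type II keratin of the set, was at the limit of detection.

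**Figure D1:**
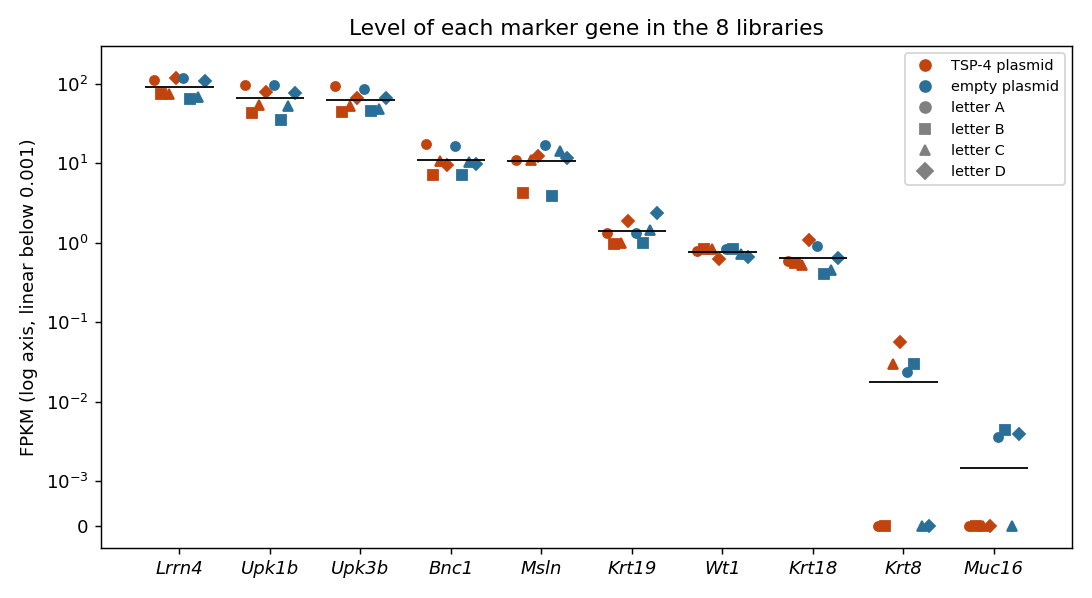
Deposited FPKM of the 10 marker genes (log axis, linear below 0.001), 1 point per library, colour for plasmid and shape for letter. Lrrn4, Upk1b and Upk3b lie between 34.7 and 119 FPKM in all 8 libraries, and Krt8 and Muc16 at or below 0.0571.

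Positions are those of the deposited tables, on GRCm38, and for 9 of the 10 genes they equal GENCODE M21; the exception is Msln. Upk3b is at chr5:136038496-136046487 (plus strand), Upk1b at chr16:38773184-38800328, Lrrn4 at chr2:132868305-132880891 and Bnc1 at chr7:81966672-81992292 (all minus). Msln is at chr17:25748614-25754327 (minus), Wt1 at chr2:105126529-105173616 (plus) and Muc16 at chr9:18495455-18674530 (minus). Krt8, chr15:101996698-102004482 (minus), and Krt18, chr15:102028180-102032027 (plus), are neighbours, and Krt19 is at chr11:100140810-100148665 (minus). Bnc1 overlaps the pseudogene 4833418N17Rik on the other strand, which has 108 counts in all, and 2.88% of the 50-base stretches of Msln are shared with other genes.

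The first question of the design is whether the markers differed between the plasmids. None of them was called. Thbs4 itself, the check of the labels, had 38063, 25754, 36630 and 31675 counts in the TSP-4 plasmid libraries A to D and 2, 11, 8 and 3 in the others. Of 14723 genes that passed the filter on low counts, 1, Thbs4, was called between the plasmids, or 0.00679%, by edgeR's quasi-likelihood test at an adjusted p of 0.05 (Benjamini-Hochberg over all genes). Of the 10 markers, 8 passed the filter; Krt8 and Muc16 did not. Of those 8, 0 were higher and 0 lower, each with an adjusted p of 1.0, and 0 had an unadjusted p under 0.05 by edgeR, DESeq2 or limma voom. With the letter as a block, 0 of 8 were called, beside 2 of all genes, Thbs4 and Ybx3 (0.0136%). The groups were free of overlap in 1.51% of all genes and in 0 of the 8 markers.

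For the most abundant genes the plasmid means lay close together against a wide spread. Upk3b stood at 335, 156, 188 and 237 CPM in TSP-4 plasmid libraries A to D, against 303, 161, 174 and 237 CPM in empty plasmid libraries A to D. Its means were 229 ± 77.9 and 219 ± 65.1 CPM (SD, n = 4 each). In edgeR's fit this is 0.06 on the log2 scale, with an SE of 0.28 and a 95% interval of -0.59 to 0.72. Both groups run from a high A to a low B. Within letters the ratio of TSP-4 to empty plasmid was 1.10 in A, 0.968 in B, 1.08 in C and 0.999 in D. In A, B and D the libraries of a letter were nearer to each other than to the rest of their group. Empty plasmid library C, at 174 CPM, was about as near to empty plasmid library B (161) as to TSP-4 plasmid library C (188).

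Upk1b had 200, 89.3, 114 and 164 CPM in TSP-4 plasmid libraries A to D, against 203, 73.4, 112 and 163 CPM in empty plasmid libraries, a log2 fold change of 0.04 (SE 0.36, 95% interval -0.78 to 0.87). Lrrn4 had 410, 277, 274 and 440 CPM in TSP-4 plasmid libraries, against 442, 245, 258 and 409 CPM in empty plasmid libraries, a log2 fold change of 0.05 (SE 0.25, 95% interval -0.53 to 0.63). The same picture held for the zinc-finger gene Bnc1, with 82.2, 33.8, 49.3 and 44.8 against 75.8, 33.5, 48.5 and 46.0 CPM and a log2 fold change of 0.04 (SE 0.32). In each of these genes the groups overlapped over nearly their whole range.

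Msln and Krt19 had the 2 negative estimates. Msln had 23.0, 8.90, 23.1 and 26.5 CPM in TSP-4 plasmid libraries, against 35.6, 8.43, 30.6 and 24.97 CPM in empty plasmid libraries, a log2 fold change of -0.29 (SE 0.46, 95% interval -1.37 to 0.78). It was lower with the TSP-4 plasmid in letters A and C, at ratios of 0.646 and 0.755, and slightly higher in B and D. With the letter as a block its unadjusted p was 0.0685 and its adjusted p 0.64 (edgeR), so it was not called there either. Krt19 had 2.48, 1.83, 1.83 and 3.48 CPM against 2.44, 1.89, 2.70 and 4.43 CPM, a log2 fold change of -0.25 (SE 0.31).

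Krt18 rests on 10 to 28 counts per library. It had 0.857, 0.799, 0.768 and 1.57 CPM in TSP-4 plasmid libraries, against 1.32, 0.589, 0.662 and 0.939 CPM in empty plasmid libraries, a log2 fold change of 0.17 (95% interval -0.62 to 0.96). Wt1, at 70 to 110 counts, was the steadiest of the set, with 4.77 ± 0.583 CPM in one group and 4.77 ± 0.536 CPM in the other, and a log2 fold change of 0.00 (95% interval -0.32 to 0.33). Over the 8 tested markers the median log2 fold change was 0.04, with 6 above 0 and 2 below, beside a median of -0.00014 over all tested genes, of which 49.9% were above 0. These intervals belong to the fit without the letter. With the letter as a block the 95% interval was -0.03 to 0.14 for Upk3b, -0.04 to 0.17 for Upk1b, -0.03 to 0.16 for Lrrn4 and -0.07 to 0.14 for Bnc1. The blocked intervals of the other genes were wider, at -0.55 to 0.03 for Msln, -0.62 to 0.15 for Krt19, -0.28 to 0.28 for Wt1 and -0.48 to 0.80 for Krt18, and all 8 include 0. In the fit without the letter, the estimate for Msln moved with single libraries. It was -0.0459 without TSP-4 plasmid library B, -0.0701 without empty plasmid library A and -0.577 without empty plasmid library B. With the letter as a block it was -0.107, -0.328, -0.205 and -0.385 without both libraries of letter A, B, C and D in turn.

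**Figure D2:**
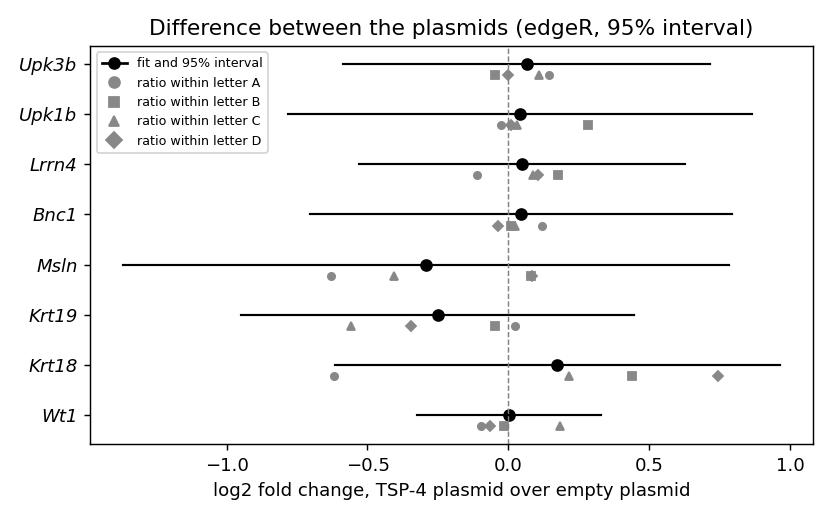
Log2 fold change of the 8 tested markers, TSP-4 plasmid over empty plasmid. Black shows the estimate and 95% interval of edgeR's fit without the letter, and grey shapes the log2 ratio within each letter. All 8 intervals include 0, and for Upk3b, Upk1b, Lrrn4 and Bnc1 the 4 ratios lie far inside the interval.

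The markers did differ between the letters. Of the 8 tested, 6 were called by an F-test on the letter in edgeR's fit of plasmid and letter (adjusted p under 0.05), namely Upk3b, Upk1b, Lrrn4, Bnc1, Msln and Krt19, whereas 28.1% of all tested genes were. The median ratio of the highest to the lowest letter mean was 2.07 over the 8 markers and 1.23 over all tested genes. Called genes with their highest mean in letter A were 5 of the 8, beside 7.06% of all tested genes. A letter has 2 libraries, and on simulated counts this test made more false calls than its nominal rate, so its p-values are too small. In these bulk cultures fewer cells of a type and less RNA per cell cannot be told apart.

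Upk3b averaged 319 CPM in letter A, 159 in B, 181 in C and 237 in D, a 2.01-fold range (adjusted p = 1.34e-07). Upk1b averaged 201, 81.3, 113 and 164 CPM, a 2.48-fold range (adjusted p = 1.09e-07, edgeR). Both uroplakins thus ran A, D, C, B from high to low, and each did so within either plasmid group. Bnc1 averaged 79.0, 33.7, 48.9 and 45.4 CPM, a 2.35-fold range (adjusted p = 1.51e-07, edgeR), again highest in A and lowest in B, with C above D. These 3 genes were called and were highest in A and lowest in B within both groups, as were 1.2% of all tested genes.

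Lrrn4 split the letters in pairs, at 426 CPM in A and 425 in D against 261 in B and 266 in C (1.63-fold, adjusted p = 8.40e-07, edgeR). Msln was low in letter B alone, at 8.66 CPM against 29.3 in A, 26.9 in C and 25.7 in D (3.38-fold, adjusted p = 0.00117, edgeR). Without letter B its adjusted p was 0.691, so its call rests on that letter. Krt19 was high in letter D, at 3.96 CPM against 2.46, 1.86 and 2.27 in A, B and C (2.13-fold, adjusted p = 0.019, edgeR). Without letter D its adjusted p was 0.546, and by DESeq2 with all libraries it was 0.167. The 6 called markers each had their lowest mean in B, and otherwise had no common profile. The share of all tested genes called with their lowest mean in B was not counted. Whether a lowest mean in B is particular to the markers therefore cannot be said. For Lrrn4 the means of B and C were close, and with the TSP-4 plasmid C was lower than B, at 274 against 277 CPM.

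Krt18 had 1.09, 0.694, 0.715 and 1.26 CPM in A to D and was not called (adjusted p = 0.291, edgeR). Wt1 had 4.997, 5.22, 4.84 and 4.03 CPM, a 1.30-fold range that was not called either (adjusted p = 0.40, edgeR), and it is the one tested marker with its highest mean in letter B. The ratio of Upk3b to Wt1, both in FPKM, accordingly ran from 52.7 to 122 over the 8 libraries, while that of Upk3b to Upk1b ran from 0.853 to 1.30. Upk3b to Msln ran from 3.41 to 11.5, and Krt19 to Krt18 from 1.44 to 3.66. Summed over all 10 genes, the markers took 1058, 573, 657 and 922 CPM in TSP-4 plasmid libraries A to D, against 1069, 530, 632 and 890 in empty plasmid libraries.

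**Figure D3:**
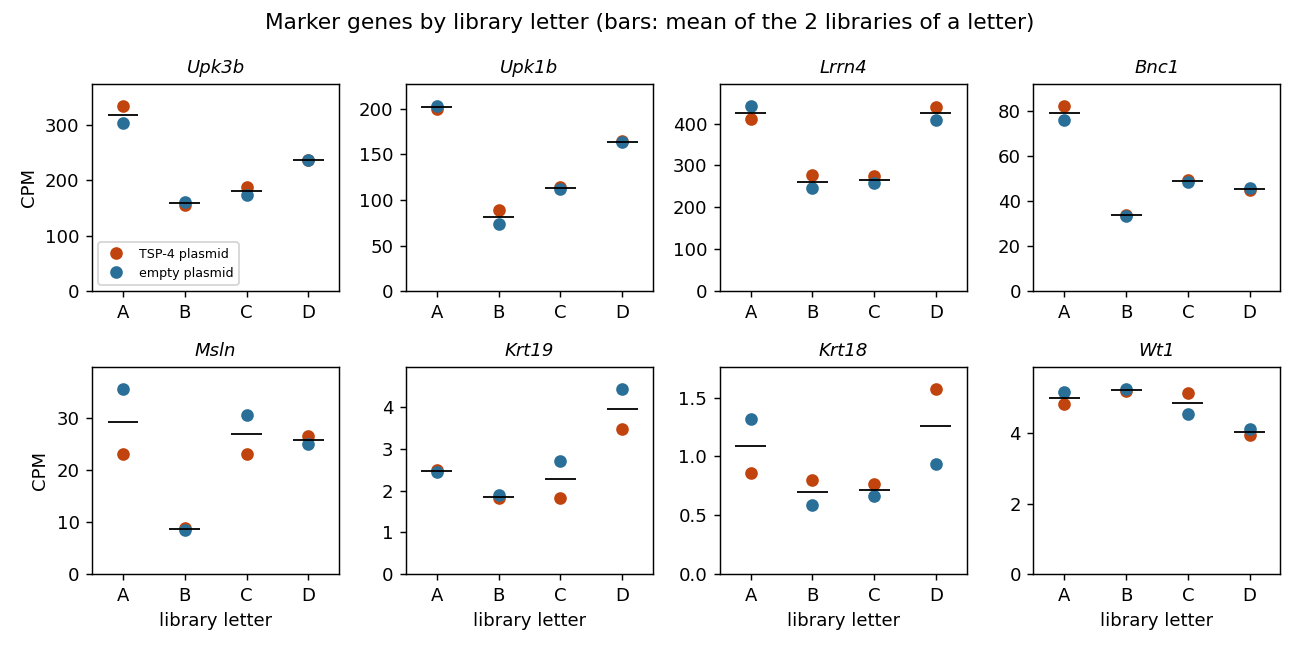
CPM of the 8 tested markers in each library by letter, coloured by plasmid, with a bar at the mean of the 2 libraries of a letter. Upk3b, Upk1b and Bnc1 are highest in A and lowest in B in both colours, Msln is low in B, and Krt19 is high in D. The bars of Wt1 run from 4.03 to 5.22 CPM.

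Further genes of mesothelium and epicardium were read as a list of 30, of which 24 passed the filter on low counts. Between the plasmids 0 were higher and 0 lower by edgeR, with 19 above 0, 5 below and a median log2 fold change of 0.13. Between the letters 20 of 24 were called, 13 of them with the highest mean in A and 3 (Aldh1a1, Aldh1a2 and Prg4) with it in B, where 7.82% of all tested genes were called with the highest mean in B. Ezr, which encodes ezrin, the linker of microvilli to actin, averaged 1227, 618, 765 and 954 CPM in A to D (adjusted p = 4.21e-05, edgeR), the same order as the uroplakins. Pdpn, the surface mucin-like podoplanin, was highest in C, at 261 CPM against 132 in A. Efemp1, a matrix glycoprotein, was level at 110 to 117 CPM (adjusted p = 0.754, edgeR).

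Several other genes of this list are named after their values were seen. The classical cadherin Cdh3 averaged 50.1 CPM in A and 19.0 in B, and the epicardial transcription factor Tbx18 averaged 124 in A and 67.0 in C. Gpm6a, a neuronal membrane glycoprotein also used as a mesothelial marker, averaged 133 in A and 66.2 to 70.6 elsewhere, and without letter A its adjusted p was 0.665. Among the retinaldehyde dehydrogenases, which make retinoic acid and are active in epicardium, Aldh1a2 was lowest in A and highest in B. It averaged 32.1 CPM in A, 152 in B, 110 in C and 41.3 in D (adjusted p = 0.011, edgeR), and Aldh1a1 averaged 993, 1080, 841 and 692 CPM (adjusted p = 3.01e-05, edgeR), lowest in D. Itln1 had 0 counts in all libraries, and Calb2, Krt7 and Krt14 were under the filter.

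The other uroplakins and keratins were mostly under the filter on low counts. Of 4 other uroplakins, Upk1a alone was tested, at 0.776 CPM in TSP-4 plasmid libraries, against 0.461 in empty plasmid libraries (log2 fold change 0.73, unadjusted p = 0.0481 and adjusted p = 1.0, edgeR). Of 16 other keratins, Krt10 and Krt80 were tested, and neither was called between plasmids or letters. Among 13 keratin and mesothelin partners and membrane mucins, 8 were tested and 0 called between the plasmids; Lrrn2, a relative of Lrrn4, had a log2 fold change of 0.31 (unadjusted p = 0.0478 and adjusted p = 1.0, edgeR). Between the letters 5 of them were called: Vim, Plec, Lgals3, Lrrn4cl and Bnc2. The basonuclin paralog Bnc2 averaged 5.92, 12.3, 9.44 and 6.46 CPM in A to D, highest in the letter where Bnc1 was lowest. Lrrn4cl averaged 17.4, 11.9, 8.56 and 14.3 CPM. The intermediate filament gene Vim, typical of mesenchymal and mesothelial cells, ran from 3579 to 4143 CPM between letters.

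Of 24 genes of epithelial junctions and desmosomes, 13 passed the filter, and 0 were called between the plasmids (median log2 fold change 0.00). Between the letters 7 of 13 were called, 3 (Dsp, Jup and Pkp2) with the highest mean in A and 0 with it in B. Jup, the junction protein plakoglobin, averaged 145, 87.0, 83.1 and 113 CPM in A to D (adjusted p = 7.49e-07, edgeR), and the cytolinker Ppl 108, 85.6, 70.5 and 115 CPM. Tjp1, a scaffold of tight junctions that fibroblasts also express, was level at 94.2 to 101 CPM (adjusted p = 0.509, edgeR). The defining epithelial genes Cdh1 and Epcam were near zero, at means of 0.135 and 0.0841 CPM. Abundant uroplakin transcripts thus stood beside almost no E-cadherin or Epcam transcript.

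Fibroblast markers, the check of the labelled cell type, were present: all 10 were tested, and their summed level ran from 8337 to 11420 CPM with the TSP-4 plasmid and from 8220 to 11870 CPM in empty plasmid libraries. By letter they summed to 10630 CPM in A, 11650 in B, 10020 in C and 8279 in D. None was called between the plasmids, and 7 of 10 were called between the letters, 5 of them (Pdgfra, Col1a2, Dcn, Lum and Tcf21) with the highest mean in B and 2 (Col1a1 and Thy1) with it in A. The collagen gene Col1a1 averaged 5946, 5699, 5124 and 4617 CPM in A to D. The proteoglycan gene Dcn, named after its values were seen, averaged 134, 532, 366 and 167 CPM (adjusted p = 2.35e-09, edgeR), and the receptor Pdgfra 42.8, 96.2, 84.6 and 46.1 CPM.

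Markers of other cell types also moved with the letters. The 9 macrophage genes summed to 292 to 1641 CPM in TSP-4 plasmid libraries, against 324 to 1327 in empty plasmid libraries, and by letter to 308 in A, 853 in B, 1484 in C and 667 in D, with 8 of 9 called. Lyz2, the macrophage lysozyme, averaged 182, 515, 928 and 416 CPM. The 7 endothelial genes summed to 70.7, 47.3, 70.0 and 62.5 CPM, with 4 of 7 called (Pecam1, Tek, Emcn and Vwf). Pericyte and smooth muscle genes summed to 46.4 to 66.5 CPM by letter, with 5 of 7 tested and 1, Mcam, called. Cardiomyocyte genes summed to 12.6 to 17.1 CPM, with 1 of 8, Tnnt2, tested and called. Schwann cell genes summed to 5.06 to 8.85 CPM, with 3 of 5 tested and 1, S100b, called. Lymphocyte genes summed to 0.0884 to 0.2496 CPM, and 0 of 6 were tested. In these 6 lists 0 genes were called between the plasmids, and the lymphocyte gene Cd3g had 0 counts in all libraries. The part of these cells in the differences between letters was not tested.

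**Figure D4:**
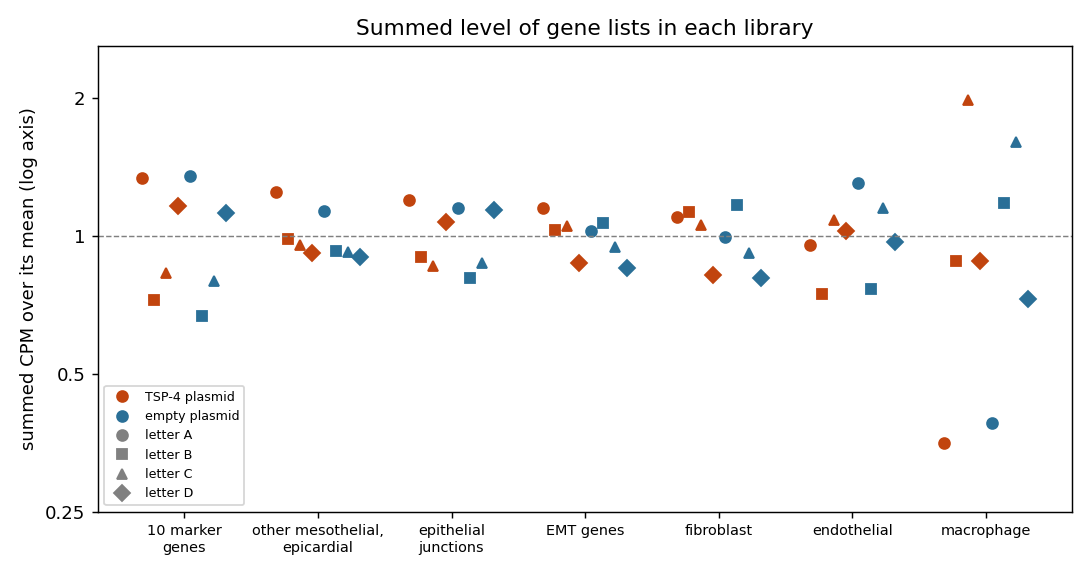
Summed CPM of 7 gene lists in each library, divided by the list's mean over the 8 libraries (log axis), with colour for plasmid and shape for letter. The 10 markers are highest in both A libraries and lowest in both B libraries, and the macrophage genes are lowest in both A libraries and highest in both C libraries.

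The genes whose profiles over the 8 libraries lay nearest to 3 of the markers were sought among genes with a mean of at least 5 CPM, by the root mean square difference of centred log2 CPM. For Upk3b, whose own profile has an SD of 0.415, they were Wwc1 (0.0852), which encodes the Hippo pathway scaffold KIBRA, the secreted guidance factor Sema3a (0.097) and Pxdc1 (0.0978). Wwc1 averaged 43.8, 23.7, 24.4 and 34.1 CPM in A to D. For Msln (SD 0.782) they were the ribosomal protein gene Rps27 (0.171), the desmosomal gene Pkp2 (0.284) and the endothelial sialomucin gene Emcn (0.301). Pkp2 averaged 28.1, 9.69, 20.2 and 19.2 CPM. Ribosomal protein genes have near-identical copies, so the profile of Rps27 is uncertain. For Krt19 (SD 0.445) they were Trib3 (0.149), Akap12 (0.155) and Rcan1 (0.172), each highest in letter D. These are descriptions over 8 libraries that share depth and letter, and no test was made of them.

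The libraries held 17123735 to 22530947 counts, and mitochondrial genes took 0.857% to 1.00% of them. No 2 libraries were near-duplicates: the chi-square per gene was 10.3 to 37.4 between libraries of a group and 4.88 to 12.4 between libraries of a letter, where sampling noise alone gives about 1.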

How the data were processed

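Per the labels' protocols, libraries were made from poly(A) RNA with the NEBNext Ultra kit. CASAVA, TopHat2 2.0, HTSeq 0.6.1 and Cufflinks 2.1.1 appear in the submitters' processing notes, with no roles given. Not given in the sources used here: the strand setting and the handling of reads with several matches. The authors deposited whole-number counts per gene and, separately, FPKM values, each of which is the count over length and library total, scaled by 1 constant per library. All 54532 rows name a gene. The members and lists were chosen with earlier results of these data known.

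Counts were filtered with filterByExpr (minimum count 10, leaving 14723 genes), scaled by TMM and fitted with edgeR 4.0.16 (quasi-likelihood, robust; R 4.3.3) with plasmid as the single term; letters were tested with plasmid and letter as terms. CPM values use the TMM factors. P-values were adjusted over all tested genes by Benjamini-Hochberg at 0.05. The scripts were tested on simulated data. DESeq2 1.42.0, limma voom (limma 3.58.1), no filter, upper-quartile factors, the replicate block and leaving out libraries were the alternatives. Besides the members, the genes named are up to 3 tested genes of each list with the highest mean CPM and up to 2 with the smallest p between the plasmids, the 3 genes most like Upk3b, Msln and Krt19, and Thbs4; other genes were chosen after their values were seen.

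Deviations from the group means correlated at 0.508 to 0.651 between libraries of the same letter and at -0.57 to 0.323 between libraries of different letters. Each of the 4 same-letter correlations is above the limit of 0.1, which some different-letter ones also pass, and above every different-letter one. The libraries were therefore read as paired by letter. Taking deviations from group means lowers the correlations between different letters. This pairing comes from the data, and the labels do not say it. Depth was 17123735 to 22530947 counts per library, at which 3 counts are 0.135 to 0.177 CPM.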

Additional observations from a re-analysis of the deposited data

Results flagged for a closer look

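Of 50 values examined over the 4 libraries of a group, 3 had 1 library far from the others, and chance alone gives about 5% of such groups. Krt18 stood at 1.57 CPM in TSP-4 plasmid library D against 0.768 to 0.857 CPM in the other libraries of that group, a gap of 0.889 of the group's range. The other mesothelial and epicardial markers summed to 2985 CPM in empty plasmid library A against 2374 to 2447 CPM in the others, a gap of 0.882 of the range. TSP-4 plasmid library A held 22530947 counts against 17123735 to 17681837 in the others, a gap of 0.897 of the range.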

How the results depend on the processing

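Between the plasmids, 0 of the markers were called in any alternative run. With the replicate block in DESeq2, Wt1, Krt18 and Krt19 had no adjusted p, so they could not be called there. Over all genes the count of 1 became 2 with the replicate block in edgeR and 10 with it in DESeq2. With the block and without both libraries of letter A, B or C it was 5, 4 and 2. It stayed at 1 whichever single library was left out. The block changed no other call. Unadjusted p-values under 0.05 numbered 235 in edgeR, 142 in DESeq2, 272 in limma voom and 1196 with the block in edgeR. None of these belonged to a marker. With no filter on low counts 1 of 540 did, in a run that also tested Krt8 and Muc16, at 5 and 6 counts in all. With the block in edgeR and without letter A, B or D, 1 of 813, 1 of 1388 and 1 of 1366 did. The lowest adjusted p of a marker there was 0.738 for Lrrn4 without A (edgeR). For Msln it was 0.477 without B and 0.37 without D. Leaving out 1 library changed the sign of 8 uncalled log2 fold changes, which ran from -0.178 to 0.263 for Upk3b, -0.171 to 0.288 for Upk1b, -0.0807 to 0.203 for Lrrn4, -0.259 to 0.301 for Bnc1, -0.0613 to 0.0837 for Wt1, -0.126 to 0.442 for Krt18, -0.48 to 0.0366 for Krt19 and -0.367 to 0.167 for Krt80. Msln, at -0.577 to -0.0459, kept its sign, as did Upk1a, Lrrn2 and Krt10. With the replicate block Wt1 was at -0.000622, and at -0.0583 without letter C. Krt18 was at -0.0789 with the block and without letter D, and Krt80 at 0.174 with it and without letter A. The runs without a single library had no letter term and left 1 letter with 1 library. With the block and without a whole letter, Upk3b ran from 0.0232 to 0.0842 and Upk1b from 0.00384 to 0.103. In those runs Lrrn4 was at 0.0262 to 0.124, Bnc1 at 0.00131 to 0.0615 and Krt19 at -0.329 to -0.141, so all of these kept their sign. The causes were not tested. Between the letters DESeq2 called 2716 genes, against 4134 in edgeR, and 2961 to 3499 were called without 1 letter, on fewer libraries. Of the markers 5 to 6 were called in every alternative. Among the other genes, the adjusted p between letters without 1 letter was 0.19 for Lyz2 (without A), 0.0686 for Col1a1 and 0.106 for Fn1 (without D), 0.649 for Vim (without C), 0.0816 and 0.0846 for Ppl (without A and without C) and 0.665 for Gpm6a (without A), and with no filter on low counts it was 0.0559 for Lyz2. Depth limits Krt8, Muc16 and Krt18, with at most 28 counts in a library.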

Other observations

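Genes of the epithelial-mesenchymal transition and of retinoic acid signalling, both active when epicardial cells leave the sheet, were read the same way. All 12 transition genes passed the filter, and edgeR called 0 between the plasmids (median log2 fold change 0.00) and 9 between the letters. Of these 9, 3 (Vim, Fn1 and Sparc) had their highest mean in letter A and 4 (Snai1, Twist1, Prrx1 and Tcf21) in letter B. Fn1, which encodes the matrix protein fibronectin, averaged 9136, 8367, 7913 and 6044 CPM in A to D. Tcf21, a transcription factor of epicardium-derived fibroblasts, averaged 120, 186, 122 and 89.3 CPM. Of 16 retinoic acid genes 14 were tested, with 0 called between the plasmids (median log2 fold change 0.02) and 8 between the letters, 5 of them highest in letter B (Aldh1a1, Aldh1a2, Aldh1a3, Crabp1 and Cyp26b1) and 1, Rarg, in letter A.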
